A study of Mus musculus with 8 samples.

Results

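The nuclear genes for the subunits of the 5 oxidative phosphorylation complexes were examined in J1 cells, a mouse embryonic stem cell line of the 129S4/SvJae strain, after knockdown of eIF4A2 by shRNA. The genes were chosen by symbol. All rows beginning with Nduf followed by a, b, c, s or v, with Uqcr, with Cox4 to Cox8 or with Atp5, and the 4 succinate dehydrogenase genes Sdha to Sdhd, were taken, leaving out Ndufa4l2 and the assembly factors named Ndufaf. This gave 80 genes, the same in the table of 12818 genes with ribosome footprints (mRNA fragments protected by ribosomes from nuclease) and in the table of 13436 genes with total RNA. Complex I had 37 of them, complex II 4, complex III 8, complex IV 14 and complex V 17. All 80 passed the filter on low read numbers in both assays. The rule also takes in 3 genes that encode no structural subunit of the complex they are counted under. Atp5s is a factor outside the ATP synthase core, Cox7a2l is a supercomplex factor, and Ndufa4 is now placed in complex IV.

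The 8 libraries were 2 of footprints from cells infected with eIF4A2 shRNA, 2 of footprints from cells infected with control shRNA, and 2 of total RNA from each of these conditions. All cells had been grown without feeders in serum and LIF, infected on day 0, kept in puromycin (1 μg/mL) for 3 days of selection and lysed on day 4.5 after 1 min in 0.1 mg/mL cycloheximide, so controls carried a virus and saw both drugs too. The protocol names 2 shRNAs per condition (shNT and shGFP, sheIF4A2-2 and sheIF4A2-3) without saying which one a library received, and a difference between replicates can therefore be one between shRNAs. Values are on the CPM scale, that is reads per gene scaled to a common library size, and libraries are called by condition and replicate number (knockdown 1, control 2).

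Oxidative phosphorylation takes place in the inner mitochondrial membrane. Complex I oxidises NADH, complex II oxidises succinate, complex III passes their electrons from ubiquinol to cytochrome c, complex IV passes them to oxygen, and complex V (ATP synthase) makes ATP from the proton gradient. Most subunits are encoded in the nucleus, translated in the cytosol and imported, and must meet the few subunits encoded in mitochondrial DNA, whereas complex II is encoded in the nucleus alone. Many of these mRNAs are short and have short 5′ leaders. eIF4A2 is a DEAD-box RNA helicase of translation initiation, and its paralog eIF4A1 unwinds leaders as part of the cap-binding complex. Nuclear respiratory factor 1 (NRF1), the ETS factor GABP and YY1 are known regulators of respiratory genes. The TISU element, a short initiator at the start codon of mRNAs with very short leaders, is known for initiation with little scanning.

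Promoter windows of RefSeq (GRCm38.p6, from 250 bases before to 50 bases after the start of the gene) were found for 67 of the 80 genes. The NRF1 motif (GCGC, any base, then TGCGC), searched on both strands, was present for 17 of these 67 genes (25.4%), against 5.19% of all 27025 genes with a window. The ETS motif CCGGAAG was present for 16 (23.9%, against 9.93%), and the YY1 motif AAGATGGC for 10 (14.9%, against 3.19%). The CCAAT box was present for 29 (43.3%, against 41.1%). The TISU core, that is the YY1 motif followed by GGC, counted only on the transcript strand in the first 50 bases and overlapping the YY1 matches, was present for 4 genes (5.97%, against 0.455%), all of complex I. These are matches of letters, not measured binding. To show how NRF1 matches can repeat in a promoter, 2 stretches with 3 matches each are given, upstream of Ndufb4 (a membrane arm subunit of complex I, chr16:37654369-37654568, minus strand) and of Sdha (the flavoprotein of complex II, chr13:74350241-74350350, minus strand). They run 5′ to 3′ up to the start of the gene, with the matches in capitals, all of them on the other strand:
Ndufb4: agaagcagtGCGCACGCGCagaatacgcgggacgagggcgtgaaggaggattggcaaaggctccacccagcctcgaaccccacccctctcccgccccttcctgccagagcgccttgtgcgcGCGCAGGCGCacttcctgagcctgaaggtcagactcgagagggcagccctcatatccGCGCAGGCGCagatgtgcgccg
Sdha: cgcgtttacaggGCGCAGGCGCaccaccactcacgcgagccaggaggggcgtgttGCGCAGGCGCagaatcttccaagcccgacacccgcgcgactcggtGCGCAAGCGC
Upstream stretches of Ndufb2 (chr6:39592445-39592564, plus strand) and Ndufv3 (chr17:31519995-31520114, plus strand), the genes with the strongest differences in footprints and in total RNA described further on, are given for comparison. Their windows held none of the NRF1, ETS and YY1 motifs, and each stretch holds a CCAAT box (in capitals, on the other strand for Ndufv3):
Ndufb2: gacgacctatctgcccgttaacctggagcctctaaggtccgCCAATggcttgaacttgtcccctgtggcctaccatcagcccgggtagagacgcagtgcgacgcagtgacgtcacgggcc
Ndufv3: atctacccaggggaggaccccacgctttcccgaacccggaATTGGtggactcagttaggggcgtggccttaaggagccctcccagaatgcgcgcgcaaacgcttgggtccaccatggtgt
The TISU cores lay at the start of Ndufa9 (chr6:126849096-126849124, minus strand), Ndufs4 (chr13:114388045-114388068, minus strand), Ndufs6 (chr13:73328433-73328458, minus strand) and Ndufs7 (chr10:80249464-80249492, plus strand), with the ATG at bases 33, 39, 37 and 28 after the start of the gene, and are in capitals:
Ndufa9: ttgtgggagAAGATGGCGGCcgccgtccg
Ndufs4: gcctacaggAAGATGGCGGCggtc
Ndufs6: gtcaccggcAAGATGGCGGCggtgct
Ndufs7: gccgaggccAAGATGGCGGCgctggcggg

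Read numbers recovered from the tables were 7947827 and 9573832 for footprints of the knockdown and 9458103 and 10682677 for those of control, and 12228408 and 12840349 for total RNA of the knockdown against 8564582 and 9489221 for control. Eif4a2 had 311 and 153 CPM of footprints in the knockdown, against 395 and 409 CPM in control. Its total RNA was 583 and 617 CPM, against 739 and 969 CPM. Total RNA control 2 stood apart for the genes examined here. It was the highest of the 4 libraries for 67 of the 80 genes (83.8%), against 35.7% of all genes tested, and its values were above those of control 1 by a median of 0.41 log2 units over the 80 genes, against -0.00 over all genes. Ribosomal protein genes of the cytosol (median 0.39, 87 genes) and of mitochondria (0.39, 73 genes) were also higher in control 2 than in control 1, and the 7 mitochondrially encoded mRNAs were lower (-1.49). In footprints knockdown 1 was the lowest library for 45 of the 80 genes (56.2%), against 27.9% of all genes. Of the embryonic stem cell markers all 10 were measured, and of the 10 fibroblast markers Col3a1, Dcn, Lum and Postn were not among the genes of either table, while Col1a1, Col1a2, Thy1 and Pdgfrb had at most 10.7 CPM. The 6 fibroblast markers measured, mostly Fn1 and Vim, summed to 834 and 937 CPM of footprints in the knockdown against 1195 and 1448 in control, and to 664 and 660.1 CPM of total RNA against 889 and 768. All 10 stem cell markers had negative log2 fold changes in both assays. They summed to 4661 and 4495 CPM of footprints in the knockdown against 7099 and 6712 in control, and to 4672 and 4620.1 CPM of total RNA against 6250.2 and 7185. The part of these markers in the results was not tested.

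**Figure D1:**
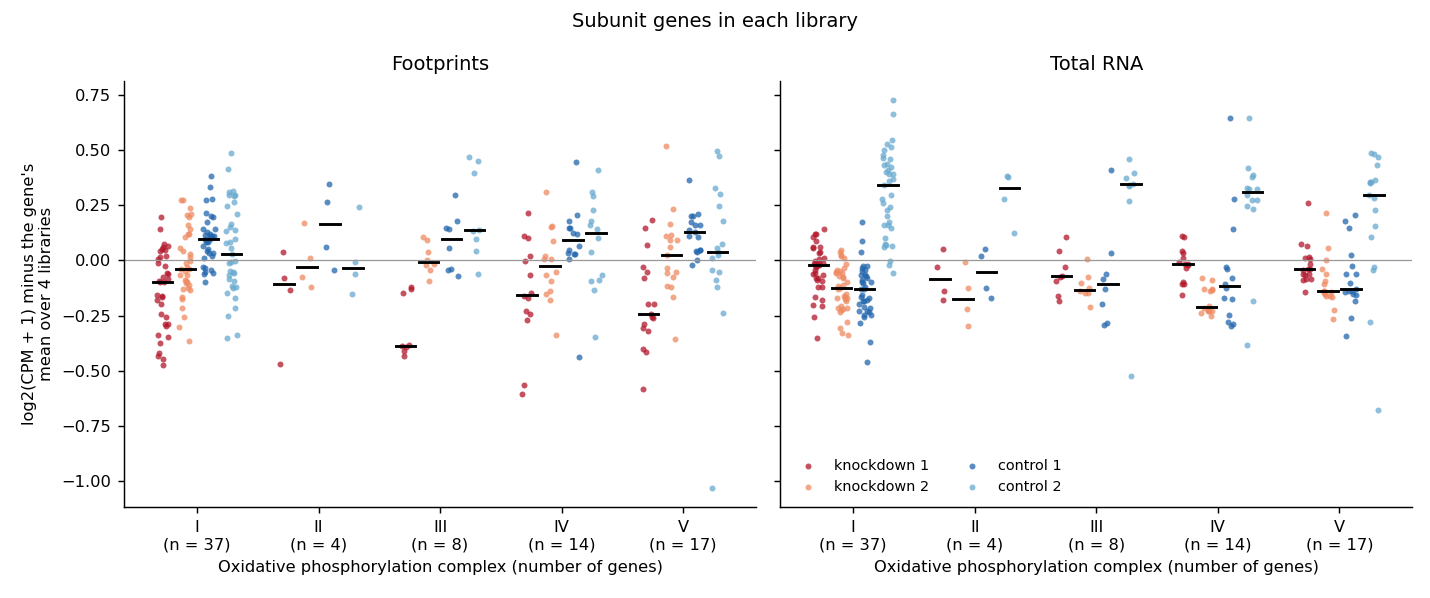
Each point is 1 gene in 1 library, as log2(CPM + 1) minus the gene's mean over the 4 libraries of its assay, by complex, with black bars for medians. In total RNA control 2 (pale blue) has the highest median in every complex, and in footprints knockdown 1 (dark red) has the lowest median in every complex.

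In footprints most of the 80 genes had lower values in the knockdown, by small amounts. The log2 fold change was negative for 57 of the 80 (71.2%), against 49.4% of all 12723 genes tested (50.6% were positive), and the median was -0.17, against 0.01 over all genes. Both knockdown libraries lay below both control libraries for 32 genes (40.0%, against 22.5% of all genes) and above them for 5 (6.25%, against 22.3%), which were Ndufb7, Ndufv2, Sdhd, Cox7a2l and Atp5d. Summed, the 80 genes took 1.56% and 1.59% of footprint reads in the knockdown, against 1.69% and 1.54% in control. None of the differences passed limma's threshold (adjusted p below 0.05): 0 of the 80 genes were called, as were 0 of all genes (0%). At an unadjusted p below 0.05, limma had 11 genes lower (13.8%, against 6.74% of all genes) and 1 higher (against 6.12%). The 11 were Ndufb2, Ndufb3, Ndufb4, Ndufs4 and Ndufv3 of complex I, Sdhb of complex II, Uqcr10 of complex III, Cox7b of complex IV and Atp5j, Atp5j2 and Atp5l of complex V. The gene that was higher was Cox7a2l. edgeR's quasi-likelihood test and DESeq2, both run without footprint control 2, also called 0 of the 80. The authors' deposited table listed 1 of the 80 at an FDR below 0.05, Ndufb2, which was lower, as were 0.889% of all its genes, and 0 as higher (0.788%). With knockdown 1 left out 39 genes lay below control (48.75%, against 38.6% of all genes), and with knockdown 2 left out 53 (66.25%, against 38.3%). With control 1 left out there were 42 (52.5%, against 33.8%), and with control 2 left out 48 (60%, against 33.8%). Those above control were 19 (23.75%, against 36.9%), 8 (10%, against 40.3%), 19 (23.75%, against 35.3%) and 6 (7.5%, against 32.5%) in that order. The median was -0.10 when knockdown 1 was left out and negative in each of these cases. Without the 3 genes that encode no structural subunit of their complex it was -0.17. With 2 libraries per group the smallest p an exact permutation test of 1 gene could give is 0.333, so p-values come from models fitted across all genes. In bulk cultures fewer cells of a kind and less RNA per cell cannot be told apart.

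In total RNA the direction was shared more widely but rested on control 2. The log2 fold change was negative for 66 of the 80 genes (82.5%), against 50.3% of all 13436 genes tested (49.7% were positive), with a median of -0.17, against -0.00 over all genes. Both knockdown libraries lay below both controls for only 16 genes (20%, against 24.6% of all genes) and above them for 2, Ndufa8 and Atp5g1 (2.5%, against 23.3%). Their summed share of reads was 1.23% and 1.15% in the knockdown, against 1.17% and 1.47% in control. limma called 0 of the 80 (0% of all genes), with 4 lower at an unadjusted p below 0.05 (5%, against 8.08%) and 0 higher (against 6.82%). The 4 were Ndufb3, Ndufv3, Sdhc and Cox5a. edgeR's quasi-likelihood test and DESeq2 called 0 of the 80. The authors' deposited table listed 1 of the 80 as lower, Ndufv3 (3.19% of all its genes were lower), and 0 as higher (2.21%). Without control 2 the median was 0.05, the opposite direction. There 23 genes lay below control 1 (28.75%, against 42.6% of all genes) and 40 above it (50%, against 42.0%). Without control 1 the median was -0.40, with 67 genes below control 2 (83.75%, against 45.6%) and 8 above it (10%, against 43.1%). Leaving out knockdown 1 gave 34 genes below (42.5%, against 32.3%) and 2 above (2.5%, against 30.8%). Leaving out knockdown 2 gave 16 below (20%, against 30.5%) and 6 above (7.5%, against 28.9%). With 1 control left, limma takes it to vary as the knockdown libraries did, so its calls in these fits are not taken as results. Among the genes with a negative fold change against either control alone were Ndufv3, Ndufb3, Sdhc, Uqcrc1 and Cox5a. Among those whose sign differed between the controls were Atp5k, Cox5b, Ndufa4, Ndufa5, Uqcr10 and Uqcrq. Both sets were picked after their values were seen, from the genes that limma called in both fits with 1 control left. Other genes had the same signs, such as Sdhb, lower against each control alone, and Ndufs1, whose sign differed.

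The footprint-to-RNA ratio, taken as translational efficiency, showed no common shift. Its log2 change (the interaction of assay and knockdown over all 8 libraries) had a median of 0.01 over the 80 genes, against -0.00 over all 12358 genes, with 38 negative (50.8% of all genes) and 42 positive (49.2%). It was 0.24 without total RNA control 1 and -0.16 without total RNA control 2. limma called 0 of the 80 and 0 of all genes (0%). At an unadjusted p below 0.05 there was 1 gene lower, Atp5j (0.599% of all genes were), and 1 higher, Cox7a2l (0.955%).

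Complex I feeds electrons from NADH into the chain, and its 7 core subunits of nuclear origin carry the flavin and the iron-sulphur clusters or line the path to ubiquinone, while the accessory subunits surround them. The core genes showed no common direction in footprints, with a median log2 fold change of 0.02 (3 negative, 4 positive), and the 30 accessory genes had a median of -0.17 (22 negative). In total RNA the medians were -0.12 for the core genes (5 negative, 2 positive) and -0.18 for the accessory genes (23 negative). Over the 37 genes the median was -0.11 in footprints, with 25 negative (67.6%, against 49.4% of all genes). Of the 37, 13 lay below both controls (35.1%, against 22.5%) and 2 above (5.41%, against 22.3%). In total RNA the median was -0.15, with 28 negative (75.7%, against 50.3%), and it was 0.06 without control 2 and -0.41 without control 1. There 7 genes lay below both controls (18.9%, against 24.6%) and 1 above (2.70%, against 23.3%). The footprint median was between -0.20, with knockdown 2 left out, and -0.05, with knockdown 1 left out.

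Ndufb2 (ENSMUSG00000002416), an accessory subunit of the membrane arm, had the lowest footprint fold change of the 80 genes. Its footprints were 36.1 and 37.9 CPM in the knockdown, against 64.4 and 65.8 CPM in control, 56.8% of the control mean, with both libraries of each group close together and no overlap. The log2 fold change was -0.80 ± 0.17 (SE; limma adjusted p = 0.125), and the authors' deposited table gave -0.81 with an FDR of 0.0434. Total RNA of Ndufb2 was 18.5 and 17.7 CPM in the knockdown, against 17.6 and 33.9 CPM in control (log2 fold change -0.42 ± 0.30), where control 1 lay with the knockdown libraries and only control 2 was higher.

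Ndufv3 (ENSMUSG00000024038), a small accessory subunit of the NADH-oxidising module, had the lowest fold change in total RNA. It had 52.2 and 52.7 CPM in the knockdown, against 75.7 and 95.9 CPM in control, with no overlap between the groups and a log2 fold change of -0.69 ± 0.16 (SE; limma adjusted p = 0.149). In the authors' deposited table it had -0.71 with an FDR of 0.0251. Footprints of Ndufv3 lay on the same side, at 86.4 and 80.3 CPM in the knockdown, against 117 and 106 CPM in control (-0.41 ± 0.16). It was lower against control 1 alone (-0.52) and against control 2 alone (-0.86).

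**Figure D2:**
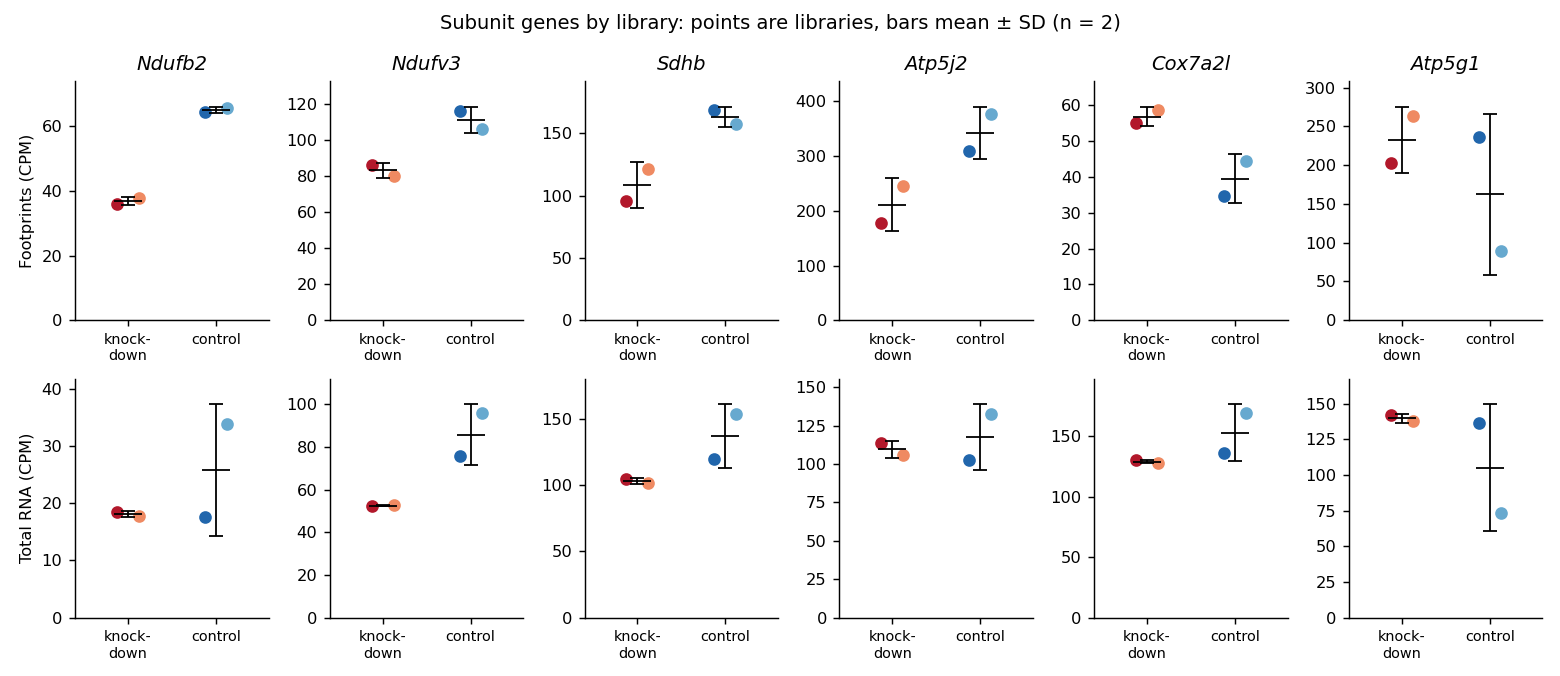
Footprints (upper row) and total RNA (lower row) in CPM of 6 genes, with a point for each library, knockdown (red) left of control (blue), and the mean ± SD (n = 2). Ndufb2 footprints separate at 36.1 and 37.9 against 64.4 and 65.8 CPM, Cox7a2l lies above control in footprints and below it in total RNA, and Atp5g1 is low in control 2 alone in both assays.

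Other accessory subunits of complex I lay below control in footprints. Ndufb3 of the membrane arm had footprints of 74.5 and 73.5 CPM in the knockdown, against 92.7 and 105 CPM in control (-0.41 ± 0.16), and total RNA of 36.9 and 35.0 CPM in the knockdown against 45.5 and 65.0 CPM in control. Ndufb4, whose promoter is shown above, had footprints of 63.2 and 81.2 CPM in the knockdown, against 96.0 and 105 CPM in control (-0.48 ± 0.18), with total RNA of 44.0 and 43.4 CPM in the knockdown against 48.4 and 72.4 CPM in control. RefSeq lists a further locus named Ndufb4b, so the split of Ndufb4 reads is uncertain. Ndufs4, which stabilises the NADH-oxidising module, had footprints of 77.6 and 84.2 CPM in the knockdown, against 120.1 and 104 CPM in control (-0.46 ± 0.16), and total RNA of 56.0 and 48.1 CPM in the knockdown against 58.6 and 80.3 CPM in control. In each of these 3 genes the groups did not overlap in either assay.

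In the catalytic core the footprints of both conditions overlapped for most genes. Ndufs1, which holds iron-sulphur clusters, had 149.6 and 233 CPM in the knockdown, against 224 and 242 CPM in control, where knockdown 1 alone was low. Ndufv1, which binds NADH and flavin, had 266 and 244 CPM in the knockdown, against 279 and 224 CPM in control. For these 2 genes the groups overlapped. Total RNA of Ndufs1 was 173 and 175 CPM in the knockdown against 166 and 247 CPM in control. That of Ndufv1 was 179 and 175 CPM in the knockdown against 169.7 and 219 CPM in control. Control 2 was the highest library for both. Ndufs7, which carries the last cluster before ubiquinone, had footprints of 76.8 and 95.4 CPM in the knockdown against 84.2 and 74.3 CPM in control, and total RNA of 58.1 and 56.1 CPM in the knockdown against 61.4 and 55.6 CPM in control, with the groups overlapping and control 2 not standing out. The highest footprint fold change of complex I was that of Ndufb7 of the membrane arm, with 131 and 130.3 CPM in the knockdown against 123 and 93.3 CPM in control (0.28 ± 0.18) and no overlap. In total RNA it was that of Ndufb9, also of the membrane arm, with 87.1 and 82.1 CPM in the knockdown against 68.2 and 83.9 CPM in control (0.16 ± 0.16), where control 2 lay among the knockdown libraries. In translational efficiency Ndufs5 was lowest (-0.41 ± 0.33) and Ndufv2 highest (0.38 ± 0.27). The genes with a TISU core differed in sign, with log2 changes in translational efficiency of -0.02 ± 0.26 for Ndufa9, -0.07 ± 0.26 for Ndufs4, 0.27 ± 0.23 for Ndufs6 and 0.15 ± 0.23 for Ndufs7.

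Complex II, succinate dehydrogenase, links the tricarboxylic acid cycle to the chain through the flavoprotein Sdha, the iron-sulphur protein Sdhb and the membrane anchors Sdhc and Sdhd. Its 4 genes did not go together, with a median of -0.08 in footprints (2 negative) and -0.28 in total RNA (3 negative). Sdhb footprints were 95.5 and 122 CPM in the knockdown, against 169 and 157 CPM in control (-0.59 ± 0.18; limma adjusted p = 0.238), and both knockdown libraries were below both controls. Total RNA of Sdhb was 104 and 101 CPM in the knockdown against 119.9 and 154 CPM in control, again without overlap (-0.40 ± 0.16). Sdhc had footprints of 135 and 141 CPM in the knockdown, against 179 and 142 CPM in control (-0.21 ± 0.17), where control 2 lay next to the knockdown libraries. Total RNA of Sdhc was 107 and 96.1 CPM in the knockdown, against 123 and 154 CPM in control (-0.44 ± 0.16; limma adjusted p = 0.304), without overlap. Sdha, the catalytic subunit, had footprints of 290.4 and 345 CPM in the knockdown against 320.4 and 276 CPM in control (0.09 ± 0.17). Total RNA of Sdha was 281 and 269 CPM in the knockdown against 241 and 295 CPM in control (0.05 ± 0.15), and the groups overlapped in both assays. Sdhd footprints lay just above control, at 71.6 and 70.2 CPM in the knockdown against 67.6 and 69.4 CPM in control. Total RNA of Sdhd was 86.9 and 81.2 CPM in the knockdown against 81.2 and 108 CPM in control, with control 2 alone high. In translational efficiency Sdhb was lowest (-0.19 ± 0.25) and Sdhc highest (0.23 ± 0.25). The sign of Sdha turned in footprints without control 2 (-0.02) or knockdown 2 (-0.03), and in total RNA without control 1 (-0.10). The complex II median in footprints was -0.01 without control 1, -0.19 without control 2 and -0.13 without knockdown 2. In total RNA the median was -0.47 without control 1 and -0.08 without control 2.

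Complex III, the cytochrome bc1 complex, was the only complex with all of its genes negative in footprints (8 of 8, median -0.34). Both knockdown libraries were below both controls for 4 of them (50%, against 22.5% of all genes). Knockdown 1 was the lowest library for all 8 (27.9% of all genes). The 5 small subunits had a footprint median of -0.41 and the 3 large genes Uqcrc1, Uqcrc2 and Uqcrfs1 of -0.22. In total RNA the order was reversed, at -0.17 for the small subunits and -0.31 for the large genes. This grouping is a description. Uqcrc1, a core scaffold protein, had footprints of 472 and 483 CPM in the knockdown, against 584 and 531 CPM in control (-0.22 ± 0.17). Total RNA of Uqcrc1 was 371 and 358 CPM in the knockdown against 425 and 524 CPM in control (-0.37 ± 0.16), with no overlap in either assay. Uqcrc2, its partner, had footprints of 135 and 191 CPM in the knockdown against 196 and 194 CPM in control, with knockdown 2 close to control. Total RNA of Uqcrc2 was 113 and 118 CPM in the knockdown against 121 and 169 CPM in control, with control 2 alone high. Uqcrfs1, the Rieske iron-sulphur protein that carries out electron transfer, had footprints of 136 and 153 CPM in the knockdown against 164 and 142 CPM in control, which overlapped. Total RNA of Uqcrfs1 was 102 and 97.6 CPM in the knockdown against 103 and 129.6 CPM in control, where the gap to control 1 was small. Uqcrq, a small subunit, was lowest of the complex in footprints, at 78.4 and 105 CPM in the knockdown against 110.5 and 140.3 CPM in control (-0.45 ± 0.20), with knockdown 2 just below control 1. Its total RNA ran the other way between the controls, at 44.4 and 41.4 CPM in the knockdown, against 55.0 and 28.4 CPM in control (0.11 ± 0.30), so that the sign followed the control used, at -0.35 against control 1 and 0.58 against control 2. Uqcr11, a further small subunit with the smallest footprint difference of the complex, had 98.0 and 116 CPM in the knockdown against 106 and 116 CPM in control (-0.06 ± 0.17), and its fold change was positive without control 2 (0.01) or knockdown 1 (0.06). In translational efficiency Uqcrq was lowest (-0.57 ± 0.39) and Uqcrc1 highest (0.15 ± 0.23). The footprint median of complex III was -0.20 without knockdown 1 and -0.56 without knockdown 2. In total RNA its median was -0.19 (7 of 8 negative), and it was -0.46 without control 1 and -0.01 without control 2.

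Complex IV, cytochrome c oxidase, has its catalytic core encoded in mitochondria, and most of the 14 genes counted here encode the nuclear subunits around it. Footprints were negative for 9 of 14 (64.3%, against 49.4% of all genes), with a median of -0.18. Of the 14, 6 lay below both controls (42.9%, against 22.5%) and 1 above (7.14%, against 22.3%). Total RNA was negative for 14 of 14 (50.3% of all genes were), with a median of -0.18 and 3 below both controls (21.4%, against 24.6%). Without control 2 the total RNA median was 0.03, and without control 1 it was -0.40. In footprints the median was -0.12 without knockdown 1 or without control 2, and -0.23 without Cox7a2l. Cox7b, a small subunit, had footprints of 89.2 and 128 CPM in the knockdown, against 153 and 177 CPM in control (-0.62 ± 0.20; limma adjusted p = 0.267), without overlap. Total RNA of Cox7b was 94.5 and 84.8 CPM in the knockdown against 82.2 and 159 CPM in control, where control 2 alone stood out, and its translational efficiency was the lowest of the complex (-0.27 ± 0.40). Cox5a, a subunit on the matrix side, had the lowest total RNA fold change of the complex, with 117 and 111 CPM in the knockdown, against 144 and 155 CPM in control (-0.39 ± 0.13; limma adjusted p = 0.266), without overlap. Its footprints were 134 and 228 CPM in the knockdown, against 227 and 255 CPM in control, with knockdown 1 alone low. Cox5b, which binds zinc, had footprints of 315 and 309.9 CPM in the knockdown against 324 and 229 CPM in control, with control 2 alone low. Total RNA of Cox5b was 159 and 147 CPM in the knockdown against 131 and 191 CPM in control, with control 2 alone high. Its total RNA value of -0.05 ± 0.20 was the highest of the complex, and it was 0.22 without control 2 and 0.01 without knockdown 2.

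Several subunits of complex IV exist as isoforms of separate genes, and for most of them the groups overlapped. Cox4i1, the common form of the largest nuclear subunit, had footprints of 759 and 771 CPM in the knockdown, against 787 and 727 CPM in control. Total RNA of Cox4i1 was 624 and 578 CPM in the knockdown against 561 and 794 CPM in control, so that control 2 alone was high. Cox4i2, the isoform known from lung and from low oxygen, had few reads, with footprints of 1.8 and 1.67 CPM in the knockdown against 3.61 and 2.78 CPM in control and total RNA of 1.26 and 0.977 CPM in the knockdown against 2.63 and 0.776 CPM in control. Its 2 knockdown libraries lay below both controls in footprints and overlapped them in total RNA. Cox6a1, the widespread form of subunit 6a, had footprints of 356 and 293 CPM in the knockdown against 339 and 341 CPM in control and total RNA of 127 and 108 CPM in the knockdown against 116 and 159 CPM in control, overlapping in both. Cox6b1 had footprints of 180.5 and 198 CPM in the knockdown against 240.1 and 234 CPM in control, with no overlap. Total RNA of Cox6b1 was 124 and 115 CPM in the knockdown against 112 and 158 CPM in control, where control 1 was the lowest library. Cox6b2, the form known from testis, was measured as well, with footprints of 33.0 and 39.3 CPM in the knockdown against 39.3 and 46.1 CPM in control and total RNA of 17.5 and 16.5 CPM in the knockdown against 21.6 and 15.4 CPM in control, and control 2 was its lowest total RNA library. Cox7a1, the form known from heart and skeletal muscle, had footprints of 6.08 and 7.74 CPM in the knockdown against 7.54 and 6.14 CPM in control and total RNA of 8.76 and 6.69 CPM in the knockdown against 7.42 and 9.65 CPM in control. Cox7a2, the widespread form, had footprints of 179 and 177 CPM in the knockdown against 185 and 166 CPM in control and total RNA of 123 and 108 CPM in the knockdown against 97.3 and 156 CPM in control. Both forms of subunit 7a overlapped in both assays. Cox8a had footprints of 173 and 176 CPM in the knockdown against 211 and 219.6 CPM in control, with no overlap. Total RNA of Cox8a was 135 and 117 CPM in the knockdown against 133 and 165 CPM in control, with control 1 next to knockdown 1. Cox6a2 and Cox8c were not among the rows of the tables used here. Transcript lengths were not used, so levels of different genes are not compared.

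Cox7a2l (ENSMUSG00000024248) helps to join complexes III and IV into supercomplexes rather than being a standard subunit. It was 1 of 23 among the 80 genes with a positive footprint fold change (50.6% of all genes were positive). It had 54.9 and 58.8 CPM in the knockdown, against 34.6 and 44.4 CPM in control, the highest fold change of complex IV (0.52 ± 0.19; limma unadjusted p = 0.0223, adjusted p = 0.296), and both knockdown libraries were above both controls. Total RNA of Cox7a2l was 130.3 and 128 CPM in the knockdown, against 136 and 169.8 CPM in control (-0.23 ± 0.15), with both knockdown libraries below. The log2 change in translational efficiency was 0.76 ± 0.25 (limma's interaction, unadjusted p = 0.0118, adjusted p = 1.00), so that it failed the correction over all genes.

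Complex V consists of a catalytic F1 head, a membrane rotor of subunit c, a peripheral stalk and small membrane subunits. The 4 small membrane subunits Atp5j2 (f), Atp5k (e), Atp5l (g) and Atp5mpl lie where ATP synthases pair. All 4 were below both controls in footprints (22.5% of all genes were), with a median of -0.47. The 4 peripheral stalk genes had a median of -0.24, the 5 F1 genes of -0.08 and the 3 subunit c genes of 0.04. This grouping was made with the values known and is a description. Over the 17 genes the median was -0.17 in footprints, with 13 negative (76.5%, against 49.4% of all genes). Of the 17, 7 lay below both controls (41.2%, against 22.5%) and 1 above (5.88%, against 22.3%). In total RNA the median was -0.15, with 14 negative (82.4%, against 50.3%). There 1 gene lay below both controls (5.88%, against 24.6%) and 1 above (5.88%, against 23.3%). The footprint median was -0.08 without knockdown 1, -0.35 without knockdown 2 and -0.09 without control 1. In total RNA the median was 0.03 without control 2 and -0.40 without control 1.

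Atp5j2 (ENSMUSG00000038690) had 177 and 245 CPM in the knockdown, against 308 and 376 CPM in control, 61.8% of the control mean, without overlap (-0.70 ± 0.20; limma adjusted p = 0.231). Its total RNA overlapped at 114 and 106 CPM in the knockdown, against 102 and 133 CPM in control (-0.09 ± 0.17). Atp5j, coupling factor 6 of the peripheral stalk, showed the same contrast, with footprints of 153 and 189 CPM in the knockdown, against 236 and 258 CPM in control (-0.53 ± 0.17) and total RNA of 73.5 and 72.9 CPM in the knockdown, against 74.0 and 70.6 CPM in control (0.02 ± 0.13). Its total RNA was nearly level over the 4 libraries, control 2 included. The changes in translational efficiency were -0.62 ± 0.28 for Atp5j2 (limma's interaction, unadjusted p = 0.0545) and -0.55 ± 0.22 for Atp5j (unadjusted p = 0.0305), with an adjusted p of 1.00 for each. For the other small membrane subunits the groups were apart in footprints only. Atp5l had footprints of 129 and 162 CPM in the knockdown against 193 and 210.2 CPM in control and total RNA of 139 and 134 CPM in the knockdown against 123 and 207 CPM in control. Atp5k had footprints of 101 and 116 CPM in the knockdown against 133 and 137 CPM in control and total RNA of 83.2 and 85.9 CPM in the knockdown against 69.3 and 123 CPM in control. Atp5mpl had footprints of 40.7 and 44.5 CPM in the knockdown against 49.3 and 69.9 CPM in control and total RNA of 63.0 and 53.7 CPM in the knockdown against 56.8 and 90.8 CPM in control. In total RNA control 1 was the lowest and control 2 the highest library for Atp5l and Atp5k.

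In the F1 head the footprint differences were small. Atp5b, the catalytic beta subunit, had 2069 and 2498 CPM in the knockdown, against 2741 and 2553 CPM in control (-0.22 ± 0.22), without overlap by a small gap. Its total RNA was 1757 and 1659 CPM in the knockdown, against 1860.5 and 2623 CPM in control (-0.37 ± 0.21), the lowest of the complex. Atp5a1, the alpha subunit, had footprints of 1306 and 1562 CPM in the knockdown against 1609.9 and 1524 CPM in control and total RNA of 1417 and 1331 CPM in the knockdown against 1346 and 1893 CPM in control. Atp5c1, the gamma subunit of the central shaft, had footprints of 262 and 295 CPM in the knockdown against 285 and 267 CPM in control and total RNA of 216 and 199 CPM in the knockdown against 199.5 and 284 CPM in control. Both genes overlapped in footprints and had control 2 alone high in total RNA.

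Subunit c is encoded by 3 genes whose mature proteins are the same and whose import sequences differ. Atp5g1 had footprints of 203 and 263 CPM in the knockdown, against 236 and 88.9 CPM in control. Total RNA of Atp5g1 was 142 and 138 CPM in the knockdown, against 137 and 73.5 CPM in control. Control 2 was low in both assays, apart from the other 3 libraries. Its log2 fold change was the highest among the 80 genes in footprints (0.67 ± 0.38) as in total RNA (0.47 ± 0.28), and without control 2 the values were -0.03 and 0.03. Atp5g2 had footprints of 197 and 217 CPM in the knockdown against 211 and 192 CPM in control and total RNA of 135 and 124 CPM in the knockdown against 124 and 178 CPM in control, and the highest translational efficiency change of the complex (0.24 ± 0.26). Atp5g3 had footprints of 229 and 336 CPM in the knockdown against 295 and 294 CPM in control and total RNA of 211 and 194 CPM in the knockdown against 201 and 233 CPM in control. For these 2 genes the groups overlapped in both assays. The near-identical coding parts of the 3 genes make the split of reads uncertain.

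Between footprint and RNA fold changes of the 80 genes Pearson's r was 0.541 and Spearman's rho 0.510, across genes that share the same 8 libraries and are not independent replicates. Both were negative for 52 genes and both positive for 9. Footprints alone were negative for 5 genes, among them Uqcrq and Atp5j, and total RNA alone for 14, among them Cox7a2l.

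**Figure D3:**
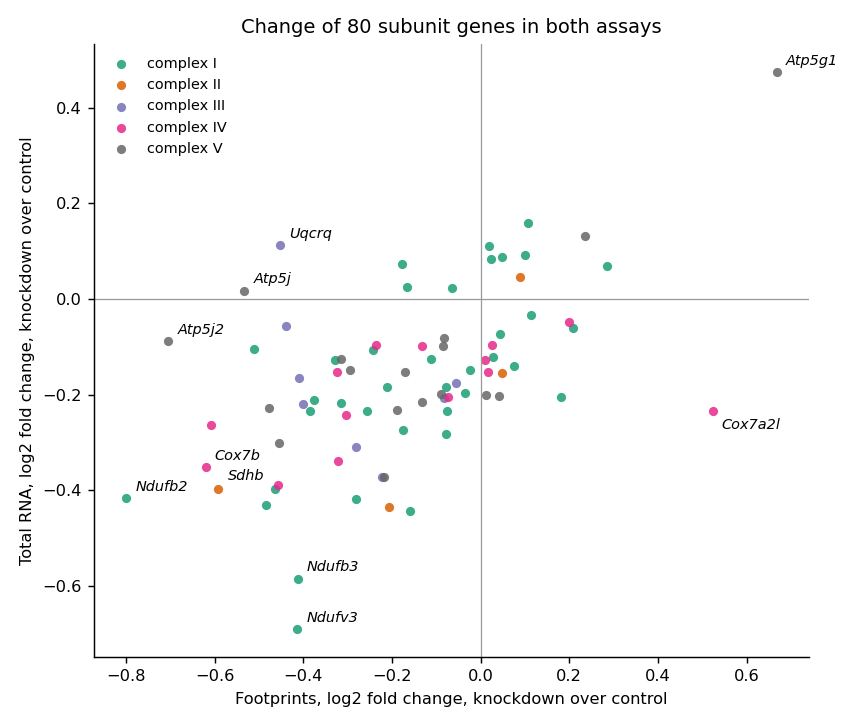
Log2 fold change (knockdown over control, log2(CPM + 1) scale) in footprints on the x axis and in total RNA on the y axis for each of the 80 genes, coloured by complex. Of the genes 52 lie at the lower left, below 0 on both axes, while Atp5g1 (0.67 and 0.47) and Cox7a2l (0.52 and -0.23) lie away from the rest.

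The level of the ratio itself, footprint CPM over total RNA CPM, was high for these genes. Its median was 1.40 in the knockdown and 1.31 in control over the 80 genes, against 0.799 and 0.793 over all 12358 genes. It was above 1 in control for 62 of the 80 (77.5%), against 32.5% of all genes. Footprints come from the coding part and total RNA from the whole transcript, and the tables were scaled separately, so the ratio also depends on the coding share of a transcript. By complex the median ratio was 1.44 in the knockdown and 1.31 in control for complex I, 1.10 and 1.14 for complex II, 1.17 and 1.18 for complex III, 1.53 and 1.46 for complex IV and 1.40 and 1.33 for complex V. Within complex I the ratio ran from 0.780 to 2.39 in the knockdown and from 0.703 to 2.53 in control, and within complex V from 0.595 to 2.34 in the knockdown and from 0.601 to 3.42 in control. The highest ratios in control were those of Atp5j (2.34 in the knockdown, 3.42 in control), Uqcrq (2.13 and 3.01) and Atp5j2 (1.93 and 2.91). The lowest were those of Cox7a2l (0.440 and 0.258), Atp5s (0.595 and 0.601) and Cox7c (0.625 and 0.628).

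**Figure D4:**
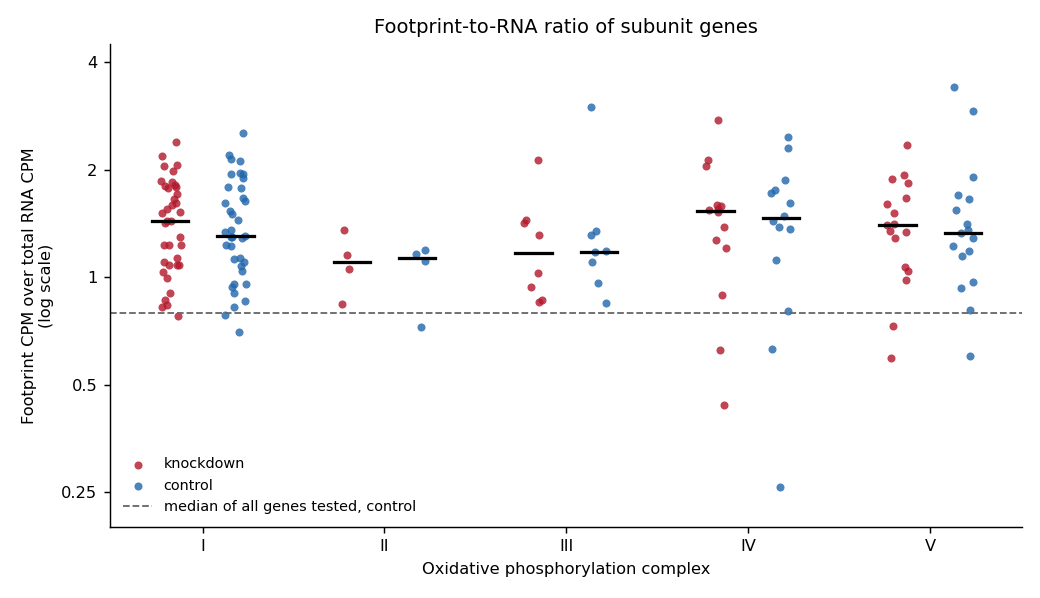
Footprint CPM over total RNA CPM (log scale, group means of 2 libraries each) for each of the 80 genes by complex, knockdown (red) left of control (blue), with black bars for medians and a dashed line at 0.793, the control median of all 12358 genes. Most genes lie above that line in both conditions, and Cox7a2l is lowest at 0.440 in the knockdown and 0.258 in control.

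Genes that assemble or serve the complexes were looked at in 8 lists. limma called 0 of 82 of these genes in footprints, 0 of 83 in total RNA and 0 of 82 in translational efficiency. At an unadjusted p below 0.05 there were 3 of 82 lower (6.74% of all genes were) and 1 higher (6.12%) in footprints, and 3 of 83 lower (8.08%) and 0 higher (6.82%) in total RNA, so these lists held no more such genes than the background. Complex I assembly factors were negative for 11 of 13 in footprints (median -0.15) and for 12 of 13 in total RNA (-0.13), with Ndufaf5, a hydroxylase of a core subunit, at 17.0 and 14.5 CPM in the knockdown against 28.8 and 17.4 CPM in control in footprints and 13.3 and 11.9 CPM in the knockdown against 16.3 and 21.0 CPM in control in total RNA. Complex II assembly factors had medians of 0.27 (4 genes) and -0.05, and those of complex III of -0.09 (5 genes) and 0.02 (6 genes). Of the complex IV assembly factors 10 of 19 were negative in footprints and 12 of 19 in total RNA, and Coa3, an early assembly factor, had footprints of 50.5 and 44.8 CPM in the knockdown against 36.9 and 29.4 CPM in control. The complex V list, assembly factors and the inhibitor Atpif1, had medians of -0.07 in both assays, with the F1 assembly factor Atpaf1 at 966 and 1128 CPM in the knockdown against 1291 and 1799 CPM in control in footprints. Carriers and ubiquinone synthesis genes were positive for 6 of 11 in footprints (median 0.01) and negative for 10 of 11 in total RNA (-0.21), with Coq3, a methyltransferase of ubiquinone synthesis, at 21.2 and 20.9 CPM in the knockdown against 25.8 and 36.8 CPM in control in total RNA. Tricarboxylic acid cycle genes were negative for 10 of 14 in each assay (medians -0.16 and -0.16), with the isocitrate dehydrogenase subunit Idh3a at 102 and 140.3 CPM in the knockdown against 161 and 182 CPM in control in footprints and the succinyl-CoA ligase subunit Suclg1 at 40.6 and 45.0 CPM in the knockdown against 56.4 and 60.0 CPM in control in total RNA. Regulators of mitochondrial genes, among them Nrf1, Gabpa and Tfam, had medians of -0.01 in footprints and -0.06 in total RNA over 12 genes. Beside all of these lists, total RNA control 2 was the library that stood apart for the subunit genes, and its part in the lists was not tested.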

How the data were processed

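The authors deposited 1 table per assay, whose library columns hold signal on the CPM scale (reads of a gene over an effective library size). Per the file headers the authors' own comparison stands beside these columns, as log2 fold changes, a likelihood ratio (a score), p-values and FDR. The build mm9 and the tools edgeR 3.26.8, HTSeq 0.11.2, TopHat2 2.1.1 and Bowtie 1.2.3 are named, without roles, in the submitters' processing notes. Strandedness of the counting is not given in the sources used. All values (100%) were whole multiples of the column's lowest value within 0.01 read, so reads could be recovered. No count test used footprint control 2, whose step of 0.0991 CPM per read was taken as too near 0.1. Its values were whole multiples of that step, and the filter on low read numbers did use its recovered reads.

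Genes passing filterByExpr (minimum count 10, minimum total 15) were tested with limma 3.58.1 (R 4.3.3) on log2(CPM + 1) with a variance trend and Benjamini-Hochberg adjustment at 0.05. This scale understates changes of genes with few reads. Footprints and total RNA were fitted apart, 2 libraries against 2, and translational efficiency as an interaction over all 8. edgeR 4.0.16 and DESeq2 1.42.0 on recovered reads, another pseudocount, filter and scaling, blocks, a joint fit and left-out libraries were alternatives, and the fits were tested on simulated data. The members, complexes and lists were chosen with earlier results of these data known. Per-library values were given for catalytic subunits, isoforms and the members with the extreme fold change of each complex at 10 CPM or more, by a written rule, of which 1 gene is not reported here. A planned comparison of levels per coding length was not run, since no protein lengths were used. Nothing in the labels says that a replicate number marks a shared culture. The protocol calls the replicates biological, and p-values measure the spread between these libraries.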

Additional observations from a re-analysis of the deposited data

How the results depend on the processing

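The number of genes called by limma moved with most choices, while that of the 80 genes mostly stayed at 0. In footprints 0 genes were called, against 54 with median rescaling, 89 with all 8 libraries in 1 fit, 3 by edgeR's quasi-likelihood test and 10 by DESeq2 (both without footprint control 2), and 1 to 36 with a library left out. None of these was 1 of the 80. In total RNA 0 genes were called, against 97 with all 8 libraries in 1 fit, 272 by DESeq2 and 34 to 6191 with a library left out, and of the 80 genes 0 to 62. In translational efficiency 0 to 1 were called with a library left out. A pseudocount of 0.25 and fits with no filter called 0 genes in each comparison. The causes were not tested. With a library left out, 1 group held a lone library, whose spread the fit took from the other libraries. Same-numbered knockdown and control libraries deviated together in footprints (correlation 0.231 over 8205 genes of at least 10 CPM) and against each other in total RNA (-0.275, 9013 genes), and the labels give no pairing. With the replicate number as a block 21 genes were called in footprints and 636 in total RNA, none of them among the 80. In translational efficiency the block took same-numbered footprint and total RNA libraries of a condition as a shared culture, and 0 genes were called. A crossed block in total RNA, chosen after seeing the data, called 924 genes and 1 of the 80.

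Without footprint control 2, footprint medians were -0.18 (edgeR) and -0.18 (DESeq2) for complex I, -0.19 and -0.19 for complex II and -0.12 (DESeq2) for complex IV. With a library left out they ran from -0.20 to -0.051 for complex I, -0.19 to -0.0057 for complex II, -0.56 to -0.20 for complex III, -0.24 to -0.12 for complex IV, -0.35 to -0.083 for complex V and -0.25 to -0.095 over the 80 genes. In total RNA they ran from -0.41 to 0.062, -0.47 to -0.085, -0.46 to -0.011, -0.40 to 0.031, -0.40 to 0.030 and -0.40 to 0.046 in the same order. For translational efficiency they ran from -0.21 to 0.26, -0.051 to 0.29, -0.29 to 0.20, -0.11 to 0.28, -0.096 to 0.15 and -0.16 to 0.24. Genes wholly below control numbered 39 to 53 in footprints and 16 to 67 in total RNA, and above it 6 to 19 and 2 to 40. In footprints edgeR and DESeq2 without footprint control 2 turned the sign of Atp5g1 (-0.014 and -0.011), Sdha (-0.0085 and -0.0054) and Uqcr11 (0.022 and 0.025), relative to positive, positive and negative values of limma. Left-out libraries gave ranges that cross 0 in footprints for Atp5g1 (-0.030 to 1.37), Sdha (-0.034 to 0.21) and Uqcr11 (-0.18 to 0.065). In total RNA they did so for Cox5b (-0.32 to 0.22), Sdha (-0.10 to 0.19) and Uqcrq (-0.35 to 0.58), and in translational efficiency for Cox7b (-0.74 to 0.20), Atp5g2 (-0.013 to 0.50) and Uqcrc1 (-0.00093 to 0.30).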

Other observations

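Among the 67 genes with a promoter window, fold changes were set beside the motif matches as a description. The 29 genes with a CCAAT box had a median footprint log2 fold change of -0.28, and the 38 without one of -0.09. In total RNA the medians were -0.15 with the box and -0.17 without it. Genes with an NRF1 match (17) had a footprint median of -0.08, against -0.17 in the 50 without a match, and total RNA medians of -0.15 and -0.18. For the ETS motif the footprint medians were -0.23 with a match (16 genes) and -0.13 without (51 genes), and the total RNA medians -0.15 and -0.18. For the YY1 motif the footprint medians were -0.22 (10 genes) and -0.13 (57 genes), and the total RNA medians -0.16 and -0.15. The 4 complex I genes with a TISU core had a median change in translational efficiency of 0.06, against 0.01 in the other 63 genes. The groups of genes share the same 8 libraries, and no test was made of these differences.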
